A study of Mus musculus with 2 samples.

Results

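The mir-219 pair of the mouse consists of Mir219a-1 and Mir219a-2, microRNA genes on different chromosomes whose hairpins release an identical mature RNA, miR-219a-5p. Both were measured here among 1973 microRNA genes counted in whole midbrain of B6NCrl mouse embryos at embryonic day 10.5. The 2 genes were chosen by name from an abundance profile of these same libraries, so their levels are given as a description and carry no test. There is 1 group of 2 libraries of RNA under 30 nt, labelled biological replicates. Replicate 1 was a pool of 69 embryos and replicate 2 a pool of 51, male and female together, all labelled healthy. The group has no treatment and no altered gene, and no other stage or tissue was analysed here, so the design holds no contrast between conditions. In the spread between the replicates, differences of the pools and of library preparation cannot be told apart.

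A microRNA gene is transcribed as a longer RNA that folds into a hairpin, from which 1 or both arms are cut as short mature RNAs. The seed near the 5′ end of the mature RNA pairs with target messages and sets which of them are repressed. miR-219 is known from the nervous system. In oligodendrocytes, the myelinating glia, it acts with miR-338 to repress messages that hold precursors in a dividing state, such as those of Pdgfra and Sox6, and in zebrafish neural progenitors it represses apical polarity genes.

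The sequences are shown first because they decide which reads could be assigned to a gene. They are from RefSeq on GRCm38.p6, in which both genes were matched by symbol and at the same coordinates as in the GENCODE M21 annotation of GRCm38, the build of mm10. In the mature arms the seed (bases 2 to 8) is in capitals.

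miR-219a-5p (from Mir219a-1 and Mir219a-2): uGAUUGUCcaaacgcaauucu
miR-219a-1-3p (from Mir219a-1): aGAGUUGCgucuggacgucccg

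The seed of miR-219a-5p, GAUUGUC, occurred in no mature RNA of another gene among the 1738 mature entries of the table, and neither did GAGUUGC, the seed of miR-219a-1-3p. In the hairpins below, the capitals mark the longest stretch that the pair has in common, which is 22 nt long and holds the whole of miR-219a-5p.

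Mir219a-1: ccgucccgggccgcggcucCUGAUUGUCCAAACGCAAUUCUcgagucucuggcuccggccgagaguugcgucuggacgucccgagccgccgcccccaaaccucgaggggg
Mir219a-2: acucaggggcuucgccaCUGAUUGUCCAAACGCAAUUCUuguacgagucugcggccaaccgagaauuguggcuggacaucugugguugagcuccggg

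Outside this stretch the hairpins diverge. The Mir219a-1 hairpin is 110 nt long with 69.1% G and C, and that of Mir219a-2 is 97 nt long with 55.7%. In a global alignment of the whole hairpins, which takes in the shared stretch, 71 of 93 aligned bases (76.3%) were identical. The alignment had 114 columns, and those with a gap are left out of this share. Predicted folding energies were -58.7 kcal/mol for Mir219a-1 and -48.2 kcal/mol for Mir219a-2, and 18 and 17 of the 21 bases of miR-219a-5p were paired in the predicted structures. The opposite arm tells the genes apart. For Mir219a-2 the mature entries used here list 1 arm only, miR-219a-5p, and no 3p arm. This gap in the entries does not show that Mir219a-2 releases no 3p RNA. Placed without gaps on the Mir219a-2 hairpin, miR-219a-1-3p fitted best at bases 62 to 83, with 7 differences in 22 bases, in capitals here.

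miR-219a-1-3p: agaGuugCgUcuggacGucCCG
Mir219a-2 hairpin, bases 62 to 83: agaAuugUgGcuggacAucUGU

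Counted from 1 at the 5′ end of miR-219a-1-3p, these are G4A, C8U, U10G, G17A, C20U, C21G and G22U, where the first letter is the base of the Mir219a-1 arm. Of these, 2 lie at the positions of the seed, G4A and C8U.

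**Figure D1:**
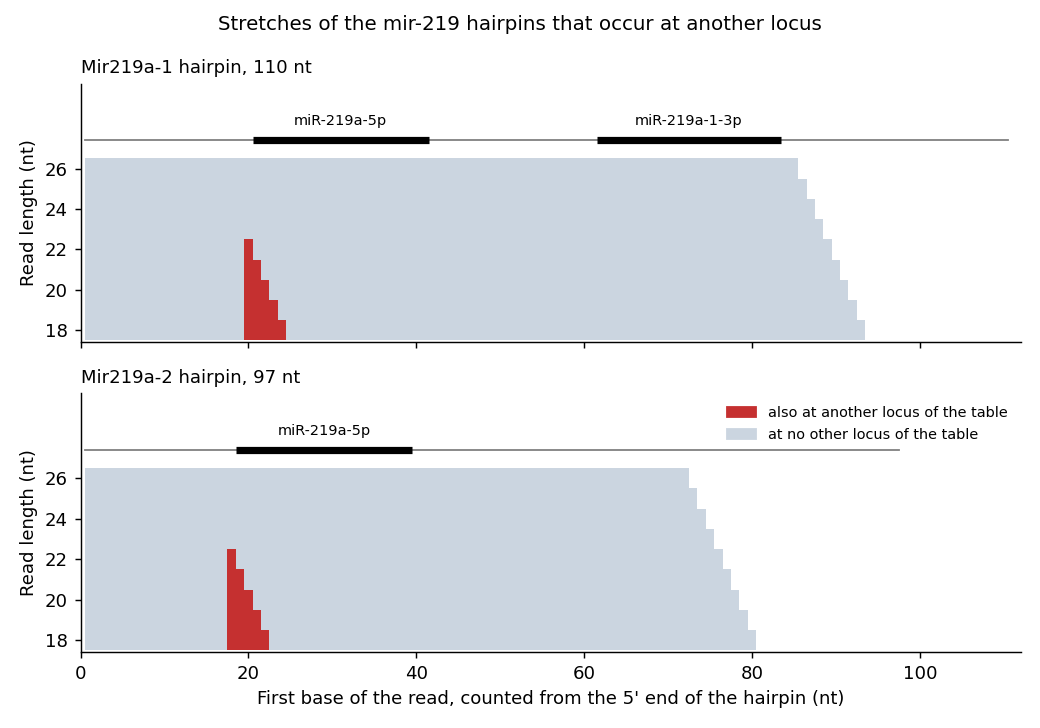
Every possible read of the Mir219a-1 hairpin (upper panel) and the Mir219a-2 hairpin (lower panel), by the position of its first base (horizontal axis, nt) and its length (vertical axis, nt). Red marks reads whose sequence is also in the hairpin of a gene at another locus, grey those found at no other locus of the table (the antisense gene at the same locus was not searched), and black bars the mature arms that the table lists; all red reads lie over miR-219a-5p and none is longer than 22 nt.

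A read of exactly miR-219a-5p, 21 nt long, is found in both hairpins and cannot be assigned to 1 of them by its sequence. Searched on both strands against 1003 hairpins, which leave out the antisense gene of the same locus, 2 of 90 possible reads of 21 nt from Mir219a-1 occurred at another locus, and 2 of 77 from Mir219a-2. At 22 nt it was 1 of 89 and 1 of 76, and at 23 nt none of 88 and none of 75. The bases that follow the shared stretch differ, C in Mir219a-1 and U in Mir219a-2. A form of the same arm that runs past this end therefore matches 1 of the 2 hairpins by sequence. Such a match does not by itself show which gene the read came from. The deposited counts keep reads that mapped to several places in a row without a gene, 2412710 reads (30.9% of the library) in replicate 1 and 2775444 (29.5%) in replicate 2. How many of them are miR-219a-5p cannot be read from these files. The counts below are therefore reads assigned to 1 locus, and do not separate the arms.

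The genes lie in different surroundings. Mir219a-1 (ENSMUSG00000065555.1) is at chr17:34024983-34025092 on the minus strand, 302 bases from the polycomb gene Ring1 and 940 bases from H2-Ke6, both on the same strand. It lies outside coding genes but shares 88 bases with an exon of Gm26940, a long noncoding RNA on the same strand. Mir219a-2 (ENSMUSG00000065485.1) is at chr2:29845631-29845727 on the minus strand, 628 bases from Urm1 and 23436 bases from Cercam, both on the other strand, and is intergenic. Each gene has a microRNA annotated on its other strand. These are Mir219c (chr17:34025012-34025071), which lies within Mir219a-1, and Mir219b (chr2:29845647-29845711), which lies within Mir219a-2. Neither is among the 1973 counted genes. The nearest counted microRNA genes were 138249 bases from Mir219a-1 (Gm27740, no reads in either library) and 150222 bases from Mir219a-2 (Mir6997, mean 1.13 CPM), so no counted microRNA gene lay nearer.

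Depth was 3297835 reads assigned to microRNA genes in replicate 1 (42.2% of 7810040) and 3682410 in replicate 2 (39.1% of 9423767). Levels are in CPM, reads per 1000000 of these gene-assigned reads. A small RNA is read whole, so a count here does not grow with gene length as it does for long transcripts. Intervals are at 95% and cover counting error only, since PCR copies of 1 molecule cannot be recognised in these counts.

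Both genes of the pair were well expressed. Mir219a-2 had 15572 reads in replicate 1 and 20546 in replicate 2, which is 4722 CPM (Wilson interval 4648 to 4796) and 5579.5 CPM (5504 to 5656). Its mean was 5151 ± 606 CPM (SD, n = 2), and replicate 2 was the higher library. Mir219a-1 had 5980 and 8514 reads, which is 1813 CPM (1768 to 1860) and 2312 CPM (2264 to 2362). Its mean was 2063 ± 353 CPM (SD, n = 2), and replicate 2 was again higher. Every value of Mir219a-2 lay above every value of Mir219a-1. For neither gene did the intervals of the libraries overlap, but these intervals take each read as 1 molecule and make no allowance for PCR copies.

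By mean CPM, Mir219a-2 ranked 47 of 1973 genes (49 in replicate 1, 43 in replicate 2) and Mir219a-1 ranked 74 (82 and 68). Of the 399 genes with at least 10 reads in both libraries, 88.5% had a mean CPM at or below that of Mir219a-2, and 81.7% at or below that of Mir219a-1. The order near them is not sharp. For Mir219a-2, 38 genes were above it in both libraries without overlap, and 12 had ranges that overlapped its own. Directly above it stood Mir181d, Mir135b and Mir127 (5550 ± 1763, 5292 ± 1433 and 5189 ± 508 CPM; SD, n = 2), and directly below it Gm25301, Mir23b and Mir15a (4895 ± 155, 4671 ± 873 and 4485 ± 451 CPM). All 6 had ranges that overlapped its own. For Gm25301 all 15781 and 18431 reads were on the strand opposite to the gene, so its value is not a level of that gene's own strand. For Mir219a-1, 66 genes were above it without overlap and 20 overlapped. Its neighbours above were Mir301, Mir425 and Gm25252 (2121 ± 732, 2106 ± 178 and 2093 ± 363 CPM), and below Mir674, Mir139 and Mir101b (2047 ± 200, 2034 ± 376 and 1999 ± 83.4 CPM), again all overlapping. The 7749 and 6764 reads of Gm25252 were likewise all on the opposite strand.

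**Figure D2:**
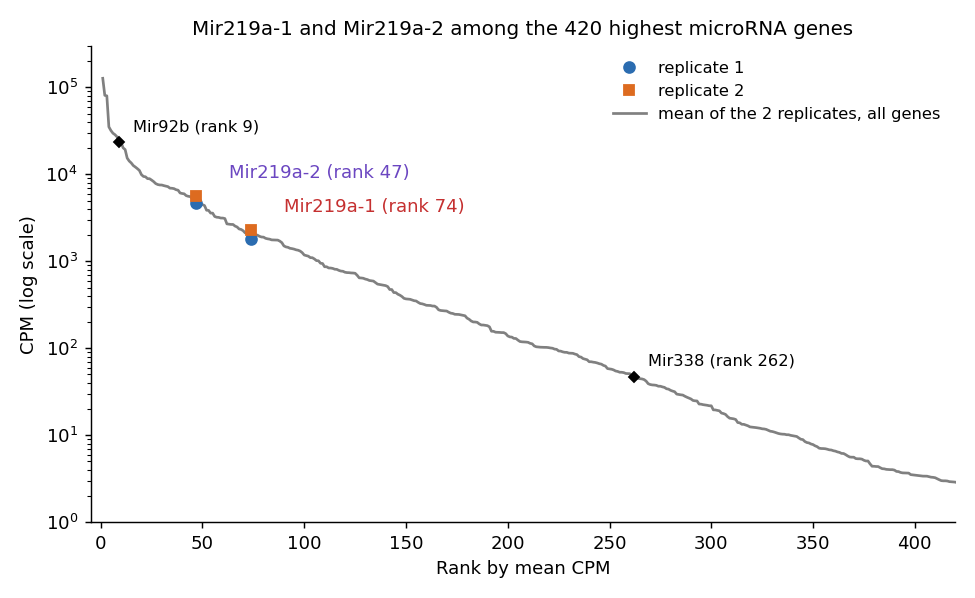
CPM on a log axis against rank by mean CPM for the highest microRNA genes (grey line, mean of 2 libraries). Mir219a-2 at rank 47 and Mir219a-1 at rank 74 are drawn with their value in each library (circle replicate 1, square replicate 2), and Mir92b at rank 9 and Mir338 at rank 262 as means (diamonds); the libraries lie close together on this scale.

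Mir219a-2 supplied most of the pair's reads that were assigned to 1 locus. Reads of exactly miR-219a-5p have no single locus and are outside this split, and their number is not known. The genes together held 21552 reads in replicate 1 and 29060 in replicate 2, or 0.654% and 0.789% of the gene-assigned reads (mean 0.721% ± 0.0959, SD, n = 2). Mir219a-2 made up 72.3% of them in replicate 1 and 70.7% in replicate 2. Its reads were 2.60 times those of Mir219a-1 in replicate 1 (counting interval 2.53 to 2.68) and 2.41 times in replicate 2 (2.35 to 2.47). This ratio needs no scaling, since both genes are counted in the same library. The mean was 2.51 ± 0.135 (SD, n = 2), and 2.84 ± 0.153 per base of the hairpin. The ratio in replicate 2 was 0.927 times that in replicate 1 (counting interval 0.891 to 0.964).

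For comparison, the pair was set beside the other pairs of genes joined by a mature sequence that the table lists for exactly 2 genes. With the mir-219 pair there are 40. In 7 of them a gene is not among the counted genes, and in 12 a gene has no reads in at least 1 library. In the 20 other pairs that were left, the ratio of the higher to the lower gene ranged from 1.24 (Mir138-2 and Mir138-1) to 49.0 (Mir181b-2 and Mir181b-1), with a median of 4.66. For 14 of the 20 the ratio was larger than for the mir-219 pair. Of the 10 pairs whose lower gene had a mean of at least 100 reads, 4 had a larger ratio, and their median was 2.03. By summed level of reads assigned to 1 locus, 7213 CPM, the mir-219 pair stood below 1 pair only, Mir92-1 and Mir92-2 at 10699 CPM. The next were Mir16-1 and Mir16-2 at 3744 CPM and Mir181a-1 and Mir181a-2 at 3497 CPM. Its ratio also changed little between the libraries, by 0.11 on the log2 scale, while 16 of the 20 other pairs changed by more. Some of these pairs rest on few reads: among the 10 deeper pairs, 7 changed by more. By the name of the row without a gene, reads that map to both genes of such a pair are not in these counts. The ratios and summed levels therefore hold for reads assigned to 1 locus, and do not rank the shared mature RNAs by abundance.

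**Figure D3:**
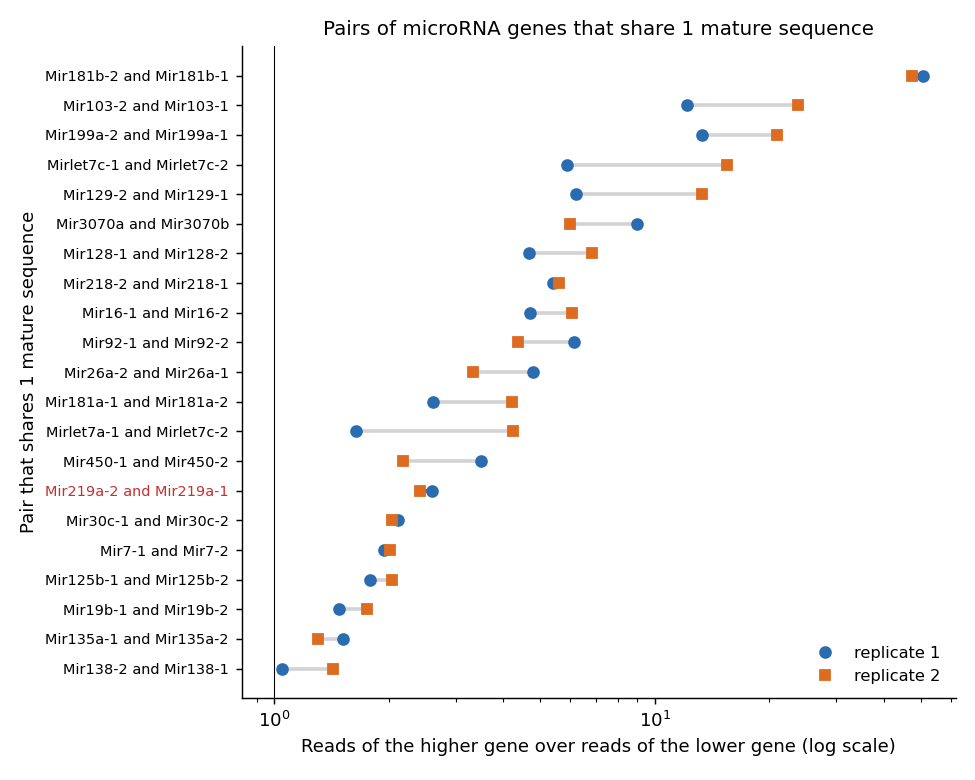
Reads of the higher gene over reads of the lower gene (log axis) for the 21 pairs of microRNA genes that share 1 mature sequence and have reads in both libraries. Circles are replicate 1 and squares replicate 2, joined by a line for each pair. The mir-219 pair, labelled in red, is at 2.60 and 2.41, below the median of 4.66 of the others. It is above the median of 2.03 of the 10 other pairs whose lower gene had a mean of at least 100 reads.

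The reads of the pair lay almost wholly on 1 strand. The opposite strand held 7 and 16 reads at Mir219a-1 (0.117% and 0.188% of its reads) and 5 reads and 1 read at Mir219a-2 (0.0321% and 0.00487%). The deposited description does not name the strand columns, which were told apart by their totals. The column taken as the gene's strand held 97.4% and 97.3% of all gene-assigned reads.

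Set beside microRNAs of the oligodendrocyte lineage, the pair stood far above its known partner. Mir338 had 167 and 160 reads, or 50.6 and 43.4 CPM (mean 47.0 ± 5.08, SD, n = 2), rank 262. The mean of Mir219a-2 was 109 times that of Mir338, and the mean of Mir219a-1 43.8 times. Neither of the mature arms listed for Mir338 is listed for another gene of the table. The other genes of this list of 5 were Mir23a (3589 ± 251 CPM), Mir32 (370 ± 22.4 CPM), Mir138-2 (102 ± 34.7 CPM) and Mir138-1 (87.9 ± 47.2 CPM). Mir138-1 and Mir138-2 share a mature arm with each other, so their counts leave out reads that map to both. Mir23a, which is also known from many tissues outside the brain, was the 1 gene of the list above Mir219a-1, and none was above Mir219a-2.

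Neuronal microRNA genes also had fewer assigned reads. Of 13 counted genes of the neuronal list, none had a higher mean CPM than Mir219a-1. Closest was Mir153 at 1905 ± 704 CPM (2403 and 1407.5 CPM), which was above Mir219a-1 in replicate 1 and below it in replicate 2. Mir137, known from neurons and adult neural stem cells, had 1103 ± 454 CPM, and Mir132, which neuronal activity induces, 92.8 ± 7.23 CPM. The 13 genes together held 0.422% of the gene-assigned reads in replicate 1 and 0.254% in replicate 2, less than the mir-219 pair alone in either library. This sum covers reads assigned to 1 locus: Mir128-1 and Mir128-2, Mir129-1 and Mir129-2, and Mir218-1 and Mir218-2 share a mature arm within each pair, and reads of that arm have no single locus. The genes of miR-124, an abundant microRNA of neurons, had 1.33 to 13.4 CPM on average. Whether these gene copies share mature sequences was not tested, and 9 of 16 and 14 of 34 reads of Mir124a-3 were on the opposite strand, so these values do not give the level of miR-124.

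Neural progenitor microRNAs held the highest levels of the lists, 58371 and 61333 CPM in sum over 7 counted genes. Mir92b, known from dividing neural progenitors, had 23299 ± 2904 CPM, and Mir93 and Mir106b of the Mcm7 polycistron 20207 ± 294 and 13537 ± 465 CPM. These 3 were above Mir219a-2, and Mir219a-2 reached 0.221 times the level of Mir92b. Mir134 (1640 ± 61.9 CPM) and Mir25 (1065 ± 61.4 CPM) were below Mir219a-1. Neuroepithelium is not among the labels of these libraries, and the miR-9 genes, its usual marker, were counted only in part. Mir9-2 had 3 and 4 reads and Mir9-3 had 452 and 246, and both of their mature arms are listed for 2 other genes, so a read of mature miR-9 has no single locus. Of the genes that remain, Mir93, Mir106b and Mir25 are known from dividing cells of many tissues, and Mir92b is the most closely tied to neural progenitors.

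**Figure D4:**
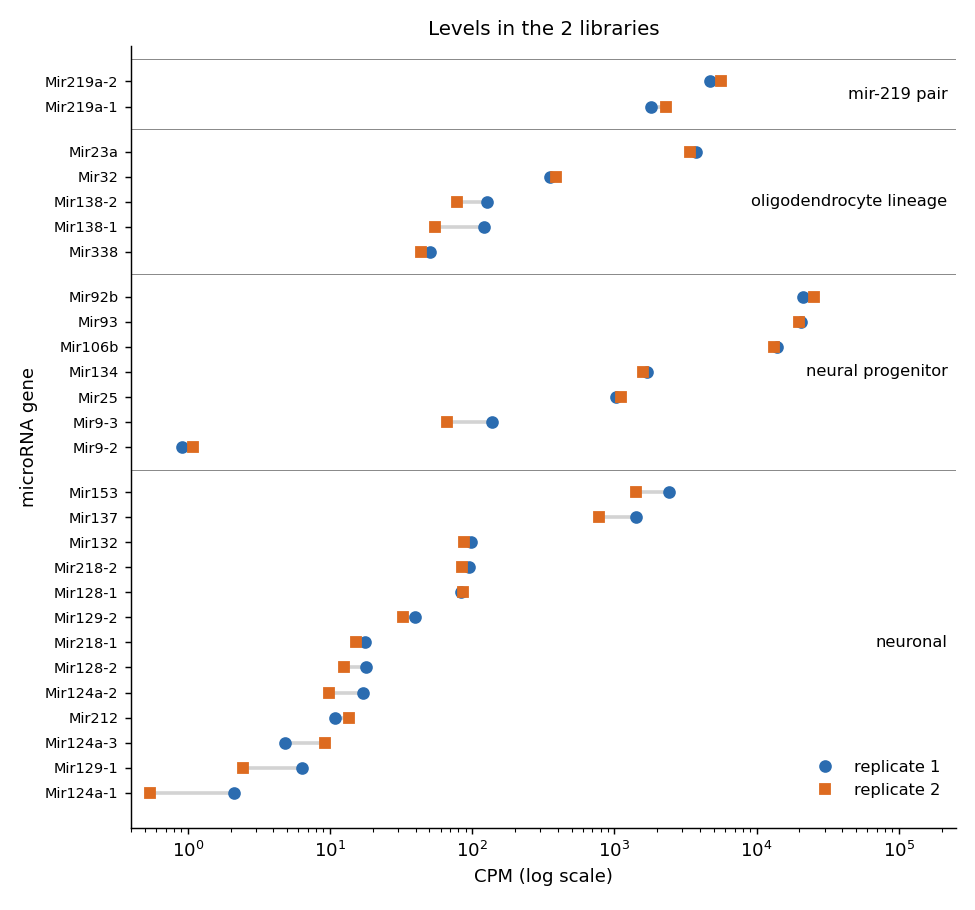
CPM on a log axis in replicate 1 (circles) and replicate 2 (squares) for the mir-219 pair and the counted genes of the oligodendrocyte lineage, neural progenitor and neuronal lists. Mir219a-2 at 4722 and 5579.5 CPM lies above all drawn genes except Mir92b, Mir93 and Mir106b.

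The midbrains were whole tissue, and microRNAs known from other cell types were present. Summed markers of endothelium (Mir126a) had 26449 and 30780 CPM, of mesenchyme 16222 and 13241 CPM, of epithelium 2525 and 3426 CPM, of leukocytes 1270 and 1446 CPM and of erythroid cells 404 and 374 CPM. In the mesenchyme sum, both mature arms of Mir199a-1 and of Mir199a-2 are listed for 2 other genes, so reads of those arms have no single locus. In the leukocyte sum, Mir142b held 682 and 865 CPM, with all of its 2250 and 3184 reads on the opposite strand, and Mir142 is not among the counted genes. The Hox-embedded genes, which mark regions behind the midbrain, had 155 and 384 CPM, heart and skeletal muscle 49.7 and 55.7 CPM, and the hepatocyte gene Mir122 had 5.76 and 15.2 CPM. Mir133a-1, Mir133a-2 and Mir196a-1 had no reads in either library, which allows up to 0.910 CPM in replicate 1 and 0.815 CPM in replicate 2 from a limit of 3 reads. This limit is for reads assigned to these loci and not for the microRNAs: Mir196a-1 shares a mature arm with Mir196a-2, and for the copies of Mir133a sharing was not tested. Which cells the reads of the mir-219 pair came from was not tested, and in tissue of this kind fewer cells of a type and less RNA per cell cannot be told apart.

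Between the replicates both genes of the pair were higher in replicate 2, on the scale of TMM-scaled libraries with 0.5 reads added. The log2 ratio of replicate 2 over replicate 1 was 0.36 for Mir219a-1 (counting interval 0.31 to 0.40, 1.28-fold) and 0.25 for Mir219a-2 (0.22 to 0.28, 1.19-fold). Neither passed 1.5-fold. Of the 338 genes of mean CPM 10 or more, 58 (17.2%) did, 30 higher and 28 lower, and 160 (47.3%) had a ratio above 0, with a median of -0.03. A higher ratio than that of Mir219a-1 was found for 50 of the 338, and a higher ratio than that of Mir219a-2 for 80. Of the 88 genes between 1000 and 10000 CPM, where counting error is small, 13 (14.8%) passed 1.5-fold and the quartiles were -0.25 and 0.21, and both genes of the pair were above the upper one. With 1 library per pool there is no test of these ratios.

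For the lists the shares over all 338 genes are the background: 47.3% were above 0 and 17.2% passed 1.5-fold. With TMM scaling each brain list had more genes below 0 than above, but the lists hold few genes. Of 10 neuronal genes of mean CPM 10 or more, 2 were above 0 (Mir212 at 0.31 and Mir128-1 at 0.04) and 8 below, with a median of -0.24. With libraries scaled by all their reads, 1 was above 0 and 9 below. Of these 10 genes 3 were lower by more than 1.5-fold (Mir137 at -0.86, Mir124a-2 at -0.78 and Mir153 at -0.77). In the oligodendrocyte list 1 of 5 was above 0 (Mir32 at 0.13) and 4 below, with a median of -0.22 and Mir338 at -0.22, and Mir138-1 (-1.15) and Mir138-2 (-0.70) passed 1.5-fold. In the neural progenitor list 2 of 6 were above 0, Mir92b at 0.26 and Mir25 at 0.12, and 4 below, with a median of -0.05, but 3 of 6 were above 0 with DESeq2 size factors. Mir9-3 (-1.03) was the 1 gene of this list past 1.5-fold. Mir126a of endothelium had a ratio of 0.22. The epithelium list had 5 of 6 genes above 0 (median 0.56) and the Hox-embedded list 3 of 3 (median 1.504), while all 5 mesenchyme genes of mean CPM 10 or more were below 0 (median -0.27). Their part in the ratios of the mir-219 pair was not tested.

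**Figure D5:**
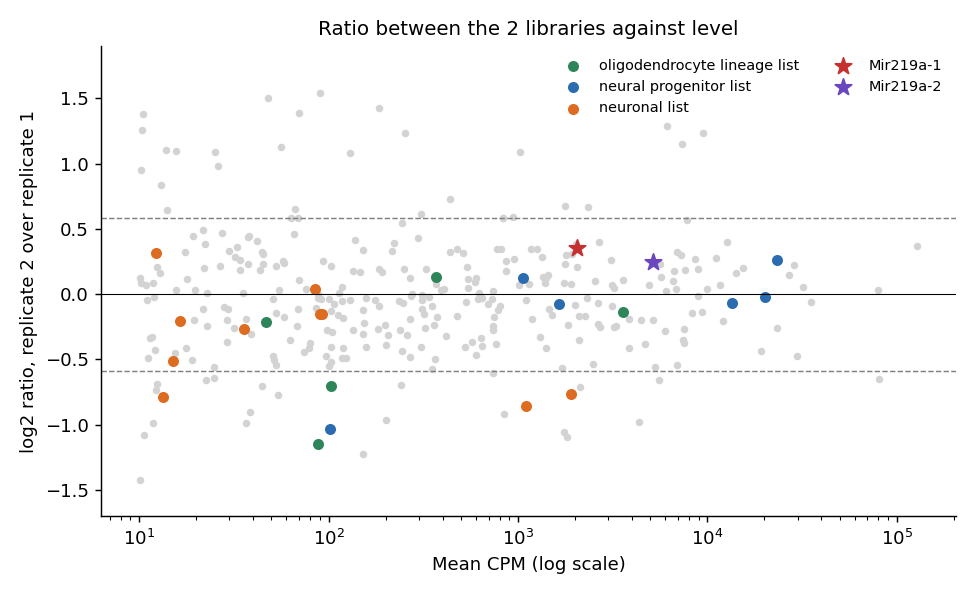
Log2 ratio of replicate 2 over replicate 1 (vertical axis) against mean CPM (log axis) for genes of mean CPM 10 or more, with dashed lines at 1.5-fold; 2 of the 338 genes lie outside the axis. Stars mark Mir219a-1 at 0.36 and Mir219a-2 at 0.25, both above 0 and inside the dashed lines, and colours mark the 3 lists.

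The genes most like each member over the 2 libraries, by Euclidean distance in log2 CPM among 338 genes, were Mir139 (distance 0.0372, 1768 and 2300 CPM), Mir674 (0.107) and Mir1193 (0.125) for Mir219a-1. For Mir219a-2 they were Gm25301 (0.158), Mir1983 (0.172, 5167 and 6031 CPM) and Mir872 (0.225). Gm25301 had all of its reads on the opposite strand. The members themselves were 1.88 apart, so that Mir219a-2 came 65th in likeness to Mir219a-1 and Mir219a-1 came 56th in likeness to Mir219a-2. With 2 libraries this measure reads little more than the level.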

How the data were processed

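Small RNA of whole midbrain was read in 2 libraries of 1 group. Per the deposited descriptions, the authors aligned the reads to mm10 and counted raw reads per microRNA gene on GENCODE M4. Aligner, mapping settings and read trimming: not given in the sources used here. Of each file's rows, 1973 are genes and 4 name no gene (57.8% and 60.9% of the reads), which were left out of library sizes. The first count column was used, which equals the sum of the 2 strand columns in all 1973 genes.

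Identifiers were matched without version to GENCODE M21 (1894 of 1973). CPM, means, SDs and Wilson intervals were computed in Python 3.11.15 (scipy 1.17.1), TMM factors with edgeR 4.0.16 and size factors with DESeq2 1.42.0. The code for ratios was tested on simulated data. Hairpins were aligned with Biopython 1.88 and folded with RNAfold 2.7.2, and stretches of 18 to 26 nt were searched in RefSeq hairpins. Members and lists were chosen with earlier results of these data known. Named genes are the members, overlapping genes, the 3 next by rank on each side, the 3 nearest in level, and list genes. Mir196a-1, Mir133a-1, Mir133a-2, the pairs that share an arm, and list genes beyond the 3 highest were named after their values were seen. Alternatives were scaling, count column, added reads, filters, hairpin length and leaving out each replicate.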

Additional observations from a re-analysis of the deposited data

Results flagged for a closer look

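Reads on the strand opposite to a member exceeded the 3 reads that a count of 0 allows in 3 cases. At Mir219a-1 there were 7 in replicate 1 and 16 in replicate 2. At Mir219a-2 there were 5 in replicate 1 and 1 read in replicate 2, which did not exceed the limit. Mir219c covers 60 of the 110 bases of Mir219a-1 on that strand and Mir219b 65 of the 97 bases of Mir219a-2, and the counts do not say where in a gene a read lies. Other named genes varied on that strand: Mir126a had 13 and 11 reads there and Mir338 4 and 2, while Mir93 and Mir106b had 0 in both libraries. Of the rank neighbours named above, Gm25301 and Gm25252 had all of their reads there. Mir425 had 1 read in replicate 1 and 0 in replicate 2, and each of the others had 0 in both libraries. The share of all genes above the limit was not counted. No control library gives the level expected from sequencing or mapping error, which was not tested.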

How the results depend on the processing

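Of 54 alternative values for 13 results, 44 stayed within a limit. Only the log2 ratios between replicates and the list medians can change sign, and none of these did. The limit was the spread between replicates or the counting interval. For counts of genes it was 1.5 times, and for list medians the SD among the genes of the list. The 44 include values that could hardly have fallen outside, such as those with other numbers of added reads at this depth. Without the most abundant gene in the library size, Mir219a-2 had 5913 CPM. The ratio within the pair was 2.84 per base of the hairpin. With all reads of the library for scaling, the log2 ratios between replicates were 0.24 for Mir219a-1 and 0.13 for Mir219a-2, since this scaling lowers the median of all genes by 0.12, and with DESeq2 size factors Mir219a-2 had 0.28. The number of genes past 1.5-fold was 146 at a mean CPM of at least 1, 27 at 100, and 198 with at least 1 read in each library, as fewer or more genes enter. The median ratio of the other pairs was 4.07 and 2.03 when the lower gene had a mean of at least 10 or 100 reads. Scaling by all reads, for list medians and for the number of genes above 0, and list medians under the other scalings were added after the data were seen. Leaving out a replicate leaves 1 library, so it gives the other library's value and no spread. For levels and for the ratio within the pair, that value always lies within the SD of the replicates, so its label carries no information. Depth limits the pair little, at 5980 reads or more per gene and library, but the number of its reads that map to both genes is not known. No paired analysis was possible because there is a single group.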
